A study of Mus musculus with 16 samples.

Results

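Bulk RNA sequencing of mouse hypothalamus was used to ask what celastrol changes when both feeding regimes are taken into account. The quantity described here is the celastrol coefficient of an additive model with celastrol and food ration as its factors, fitted to all 16 of the 16 libraries of the study, 8 with celastrol against 8 without. All mice were wild-type C57BL/6J made obese by a high-fat diet, and all had been injected with DMSO daily for 1 week before a treatment of 4 days. Veh mice then received DMSO and ate freely, and CS mice ate freely and had celastrol injected intraperitoneally at a daily dose of 100 µg per kg. PF mice, the pair-fed control, received vehicle and 0.5 g of high-fat diet a day, by the labels slightly less than celastrol-treated mice ate on average, and PF+CS mice received celastrol with that same ration. Each group had 4 libraries, and tissue was taken 6 h after the last injection. The labels number the samples but do not say that each came from a separate mouse, so p-values measure the spread between these samples, part of which may be technical. They name no sex, age, cage or collection day.

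Celastrol is a triterpenoid of the thunder god vine that lowers food intake in obese rodents and is described as a leptin sensitizer. The hypothalamus senses leptin through neurons of the arcuate nucleus, and its peptide-making neurons set feeding, water balance and the output of the pituitary. Secreted peptides are cut from precursors by prohormone convertases in dense-core vesicles before they are released. Because celastrol-treated mice eat less, the PF and PF+CS groups give the drug comparison again with intake set by the experimenter. In CS minus Veh the drug and the lower intake that comes with it cannot be told apart. The model counts CS mice as free-fed, so the celastrol coefficient, which averages over both arms, carries part of that difference in intake.

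The names in the deposit disagree with each other. In the authors' deposited comparison tables the mean of normalised counts can be traced to the count columns it was made from, and 3 of 5 table names did not match their columns. With PF and CS swapped, all 5 match. Titles of the samples and headings of the count columns share 1 naming, which is used here throughout. If the table names are right instead, the coefficient labelled ration below is the celastrol coefficient. The ration coefficient is therefore given beside many of the results. The interaction is the same under both readings.

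The libraries held 6008564 (PF 1) to 12880459 (Veh 3) counts, and 14775 of 24047 genes passed the filter on low counts. Hypothalamic markers such as Pomc, Agrp, Hcrt, Pmch and Nkx2-1 were measured in every group (14 of 14 markers passed the filter), and 1 of 7 pituitary markers passed it. Meningeal fibroblast markers, from the membranes that wrap the brain, stood low in 5 libraries, Veh 3, PF 1, PF 2, CS 2 and PF+CS 4, of which 3 are without celastrol and 2 with it. No meningeal marker was called for celastrol, but all 10 of 10 had a positive log2 change, with a median of 0.29. Their mean level ran from 1.89 to 4.24 log2 CPM (median 3.66) without celastrol and from 2.26 to 4.33 (median 3.96) with it. Results below include these 5 libraries. Of 68 called genes picked by the naming rule, 31 were no longer called without them, none of which changed direction.

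Celastrol changed few genes and by small amounts. Of 14775 genes, 361 (2.44%) passed edgeR's quasi-likelihood test at 0.05 or below after Benjamini-Hochberg (BH) adjustment and are here said to be called, 163 higher (1.1%) and 198 lower (1.34%). These shares are the background for each count of celastrol calls in a gene list below. The median absolute log2 change of the called genes was 0.17. A change of at least 1.2-fold was seen in 80 of the 361, and of at least 1.5-fold in 15. At a mean log2 CPM of 1 or more, genes called higher were led in size by Nox4, Vsig2 and Vwf and those called lower by Avp, Lrrc10b and Fabp7. Genes with the smallest adjusted p were Srrm2, Heg1, Kmt2d, Kmt2a, Nav2 and Vgf. Leaving out single libraries moved the count from 122 (without CS 4) to 492 (without PF 4), and leaving out Veh 2, PF 1, CS 1, CS 3 or PF+CS 2 gave 196, 225, 218, 196 and 206. Leaving out the 5 libraries low in meningeal markers gave 157 calls (99 higher and 58 lower), of which 113 were among the 361. Calls that ended without these 5 included those of Nox4, Vsig2, Edn1, St6galnac2, Arhgef5, Rbpms, Igfbp7, Avp, Lrrc10b, Chia1, Oxt, Nlrx1, Mlc1, Olig1, Lef1, Prdx2, Pcsk1, Hdac7, Hyou1, Mrps34, Cox4i1, Atp5b, Psmb4, Setd1a, Dot1l, Stat2, Col4a2, Eng, Apoe and Grid1.

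Both feeding arms, which share no library, were then set side by side. With free food (CS minus Veh) 132 genes were called (0.893%, 45 higher and 87 lower), and under the ration (PF+CS minus PF) 14 were called (0.0948%, 13 higher and 1 lower). All 361 genes of the celastrol coefficient had the same sign in both arms, against 59.1% of all genes tested. The additive model averages over the arms, so this agreement is partly built into the choice of genes. Chosen in one arm and read in the other, 43 of the 45 genes called higher with free food were also higher under the ration, with median log2 changes of 0.20 and 0.12. Of the 87 called lower with free food, 84 were lower under the ration, with medians of −0.26 and −0.09. As a background for overlaps named below, CS and Veh libraries did not overlap in 8.94% of all genes, PF+CS and PF libraries in 4.16%, and both arms lay apart in the same direction in 0.569%. The 8 and 8 did not overlap in 0.257%. Of the 84 genes that lay apart in both arms in the same direction, 69 were among the 361 called (0.467% of all tested). Of the 38 that lay apart 8 against 8, 32 were called (0.217% of all tested). Calls and overlaps were read from the same values. All 14 genes called under the ration had the same sign with free food, and 7 of them were called there as well. Across all 14775 genes the log2 changes of the arms correlated with Pearson's r of 0.281 and Spearman's rank correlation of 0.257. This is a correlation across genes, which are not independent, and the arms share the scaling and the length and base composition of each gene. Leaving out CS 4 cut the calls with free food to 10, and leaving out PF 2 cut those under the ration to 1.

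**Figure D1:**
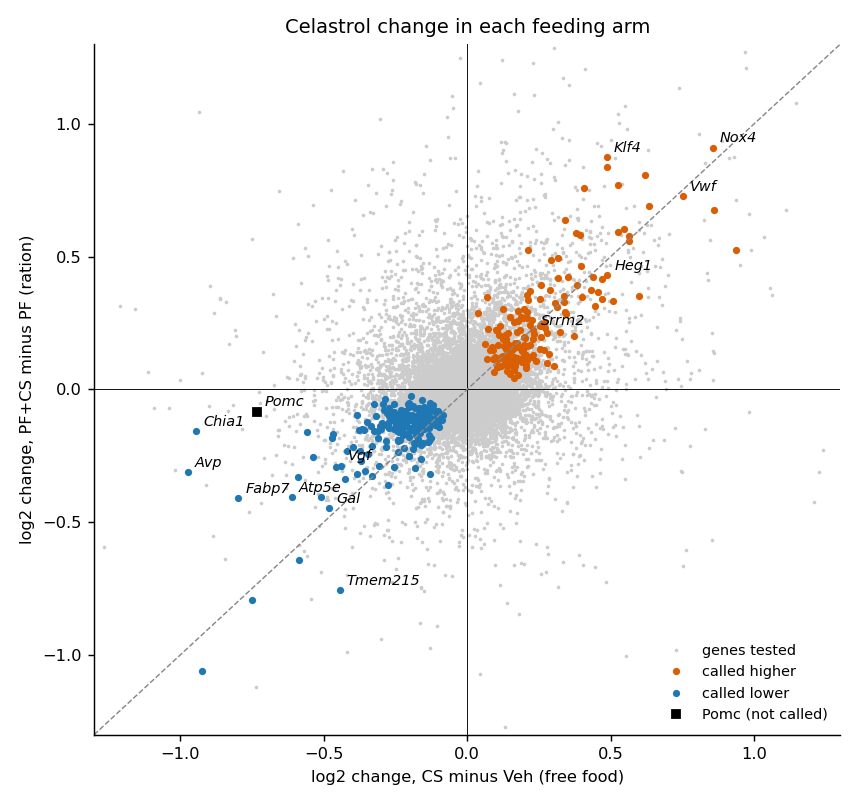
Log2 change by celastrol with free food (horizontal axis) against that under the ration (vertical axis) for each gene tested, with both axes cut at 1.3 either way. Orange and blue points are genes called higher and lower in the celastrol coefficient, all of which lie in the upper right or lower left part of the plot, and the black square is Pomc, which was not called.

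The interaction, the celastrol change of the ration arm less that of the free-food arm, tests whether the arms differ. No gene was called (0%, smallest BH adjusted p = 0.913 by edgeR), and 0 were called by DESeq2, by limma voom and in the test of FPKM values. At an unadjusted p under 0.05 there were 741 genes (5.02%), and 33 of the 361 called genes were among them. Among the 33 were Pdyn, Chia1 and Avp. The ration coefficient of the same fit called 1670 genes (11.3%), 1020 higher (6.9%) and 650 lower (4.4%). These shares are the background for each count of ration calls in a gene list below. Both coefficients were called in 57 genes, with the same sign in 43.

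Several genes of peptide-making neurons fell. Vgf and Pcsk1 of the secretory pathway, the feeding peptide gene Gal, and the hormone precursor genes Trh, Pdyn, Oxt and Avp were all lower with celastrol. In bulk tissue, fewer cells of a type and less RNA per cell cannot be told apart. Vgf encodes a precursor cut into several neuropeptides that affect feeding and energy use in rodents, and it stood at 206, 210.3, 199.8 and 218 CPM (counts scaled to the library's TMM-adjusted total) in Veh 1 to 4 and at 151, 157, 151 and 155 CPM in CS 1 to 4. Under the ration it stood at 207, 191, 169 and 157 CPM in PF and 147, 149.99, 143 and 150.4 CPM in PF+CS. All 8 libraries with celastrol lay at or below 157 CPM and did not overlap with the 8 without, although PF 4 came within 1 CPM of CS 2. Vgf (chr5:137026392-137033351, GRCm38) fell by 0.37 on the log2 scale (SE 0.04, edgeR BH adjusted p = 7.05e-05), from 195 ± 21.4 CPM without celastrol to 151 ± 4.30 CPM with it (SD, n = 8 and 8). Its ration coefficient was −0.14 (edgeR BH adjusted p = 0.0443), also a called decrease.

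Gal encodes galanin, a peptide that stimulates feeding and fat intake. Its level was 29.6, 23.9, 21.3 and 21.5 CPM in Veh and 16.3, 17.5, 17.97 and 16.6 CPM in CS. With the ration it was 22.6, 24.8, 29.5 and 20.6 CPM in PF and 19.2, 16.9, 15.8 and 19.4 CPM in PF+CS. The highest celastrol library, PF+CS 4, lay below the lowest library without celastrol, PF 4, so the 8 and 8 did not overlap. Gal (chr19:3409915-3414544) fell by 0.46 (SE 0.07, edgeR BH adjusted p = 0.000649), by nearly the same log2 amount in both arms (−0.48 and −0.45). Its ration coefficient was 0.04.

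Trh encodes thyrotropin-releasing hormone, which drives the thyroid axis and energy use. Trh was at 85.7, 79.01, 76.5 and 73.4 CPM in Veh and at 53.7, 67.7, 60.2 and 59.2 CPM in CS. In the rationed mice it was at 71.6, 81.02, 87.3 and 70.04 CPM in PF and at 73.6, 57.4, 64.5 and 51.7 CPM in PF+CS. The free-food groups did not overlap, and PF+CS 1 lay within the range of PF. Trh (chr6:92242061-92244650) fell by 0.35 (SE 0.07, edgeR BH adjusted p = 0.0134). Its ration coefficient was 0.01.

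Avp and Oxt, neighbouring genes of the magnocellular neurons, encode vasopressin, which conserves water, and oxytocin, which acts in milk ejection and in satiety. Avp was at 148, 162, 121 and 153 CPM in Veh and at 67.95, 96.6, 75.6 and 58.6 CPM in CS. Under the ration Avp was at 96.4, 125, 106 and 88.7 CPM in PF and at 78.3, 71.6, 109 and 74.2 CPM in PF+CS. The free-food groups lay apart, while PF+CS 3 lay above 3 of the 4 PF libraries. Avp (chr2:130580620-130582554) fell by 0.65 (SE 0.15, edgeR BH adjusted p = 0.039), with log2 changes of −0.97 with free food and −0.31 under the ration. Its call held in 4 of 16 fits that each left out 1 library. Oxt (chr2:130576173-130577054) fell by 0.46 (SE 0.11, edgeR BH adjusted p = 0.0362), from 71.9 ± 12.4 CPM without celastrol to 51.9 ± 5.52 CPM with it (SD, n = 8 and 8), and its call held in 5 of the 16. Without the 5 libraries low in meningeal markers the adjusted p was 0.17 for Avp and 0.237 for Oxt. With the meningeal level as a covariate the edgeR BH adjusted p was 0.0566 and 0.0626, and the ration coefficients were −0.17 and −0.05.

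Pdyn encodes the precursor of dynorphin, an opioid peptide. It was at 62.2, 49.1, 53.04 and 55.3 CPM in Veh and 43.2, 44.1, 42.97 and 38.1 CPM in CS, which did not overlap. PF libraries were at 56.6, 48.9, 52.3 and 51.2 CPM and PF+CS libraries at 49.5, 46.1, 47.5 and 51.4 CPM, which overlapped. Pdyn fell by 0.24 (SE 0.05, edgeR BH adjusted p = 0.0137), with log2 changes of −0.38 in the free-food arm and −0.10 in the ration arm. Pcsk1, a prohormone convertase of the regulated secretory pathway, fell by 0.15 (SE 0.04, edgeR BH adjusted p = 0.0394) from 65.6 ± 5.56 CPM without celastrol to 59.03 ± 3.64 CPM with it (SD, n = 8 and 8), and its call held in 4 of the 16 fits. The Pcsk1 call also ended with the meningeal covariate (edgeR BH adjusted p = 0.0576) and without the 5 libraries (edgeR BH adjusted p = 0.106). Pcsk1 was called lower for the ration as well, at −0.13 (edgeR BH adjusted p = 0.0395).

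Of 16 peptide hormone precursors tested, 4 fell and 0 rose, and the median log2 change was −0.23 against −0.0024 over all genes. The mean level of the 16 ran from 4.13 to 4.25 log2 CPM without celastrol and from 3.76 (PF+CS 4) to 4.11 with it, with no overlap but a narrow gap. Lying apart was not particular to these genes. Astrocyte markers (at least 7.67 without celastrol, at most 7.66 with it) and mitochondrial ribosomal protein genes (4.16 and 4.15) lay apart too, by narrow margins. The members that were not called included Vip, which encodes the signal peptide of the suprachiasmatic clock (−0.59, edgeR BH adjusted p = 0.396), Sst, somatostatin (−0.12), Ghrh, growth hormone-releasing hormone (−0.22), and Crh, corticotropin-releasing hormone (0.10). In PF+CS 4 Vip was at 0.514 CPM, against 4.54 to 14.3 CPM in the other libraries. Of 14 granins and processing enzymes, Vgf and Pcsk1 fell and 0 rose, with a median of −0.02. The granins Chga (0.02), Chgb (−0.01) and Scg2 (−0.05), the convertase Pcsk2 (0.06) and the carboxypeptidase Cpe (0.01) were not called. In the ration coefficient 1 of the 16 hormone precursors and 3 of the 14 granin genes fell.

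Of 2 lists for neighbouring tissue, thalamus and striatum, that of the thalamus shifted in the same comparison. Striatum markers were positive in 4 of 7 (median 0.07, none called). All 8 of 8 thalamus markers had a positive log2 change with celastrol (median 0.13). Lef1, a transcription factor and the only called member, rose by 0.37 (SE 0.08, edgeR BH adjusted p = 0.0104, and 0.0766 without the 5 libraries low in meningeal markers). The mean level of the thalamus markers was 4.85 to 5.03 log2 CPM without celastrol and 4.92 to 5.57 with it. Of 14 hypothalamus markers 3 fell, namely Avp, Oxt and Trh, and the list's mean level was 4.39 to 4.69 log2 CPM without celastrol and 4.28 to 4.58 with it. The region-defining transcription factors Nkx2-1 (−0.11), Otp (−0.09) and Sim1 (0.08) were not called. The part that the cut of the tissue plays in the peptide changes was not tested.

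The 150 bases before the gene start are shown for 3 of these genes, since a set of genes that falls together raises the question of what their promoters share. Capitals mark matches to TGACG on either strand, the core of the cyclic AMP response element that many neuropeptide promoters carry. Sequences are from RefSeq on GRCm38.p6 and are written 5′ to 3′ in the direction of transcription.
Gal (chr19:3414545-3414694, minus strand): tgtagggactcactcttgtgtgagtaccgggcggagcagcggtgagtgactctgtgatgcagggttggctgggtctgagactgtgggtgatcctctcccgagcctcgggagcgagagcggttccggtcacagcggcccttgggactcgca
Trh (chr6:92244651-92244800, minus strand): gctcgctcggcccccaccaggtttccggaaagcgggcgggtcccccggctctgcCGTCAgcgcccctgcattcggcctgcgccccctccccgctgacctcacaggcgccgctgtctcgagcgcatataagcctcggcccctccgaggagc
Pcsk1 (chr13:75089707-75089856, plus strand): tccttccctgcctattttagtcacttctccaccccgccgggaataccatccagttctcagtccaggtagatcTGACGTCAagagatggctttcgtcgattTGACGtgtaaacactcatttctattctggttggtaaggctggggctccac
Trh held 1 match, which starts 96 bases before the gene start, and Pcsk1 held 3, which start 78, 75 and 50 bases before it. The start is that of RefSeq, which for Pcsk1 lies downstream of the start in GENCODE (75089826). The end of the Pcsk1 window therefore lies inside the gene as GENCODE places it, while its matches lie before both starts. The first and middle matches of Pcsk1 overlap on opposite strands as the palindrome TGACGTCA. Gal, Oxt and Avp held none in this window. The window of Flt1, a gene that rose, is shown further below and also holds TGACGTCA, which is not in capitals there. Of 32851 mouse promoters, 13.3% hold such a match in the same length, so a match is a description and not a site.

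**Figure D2:**
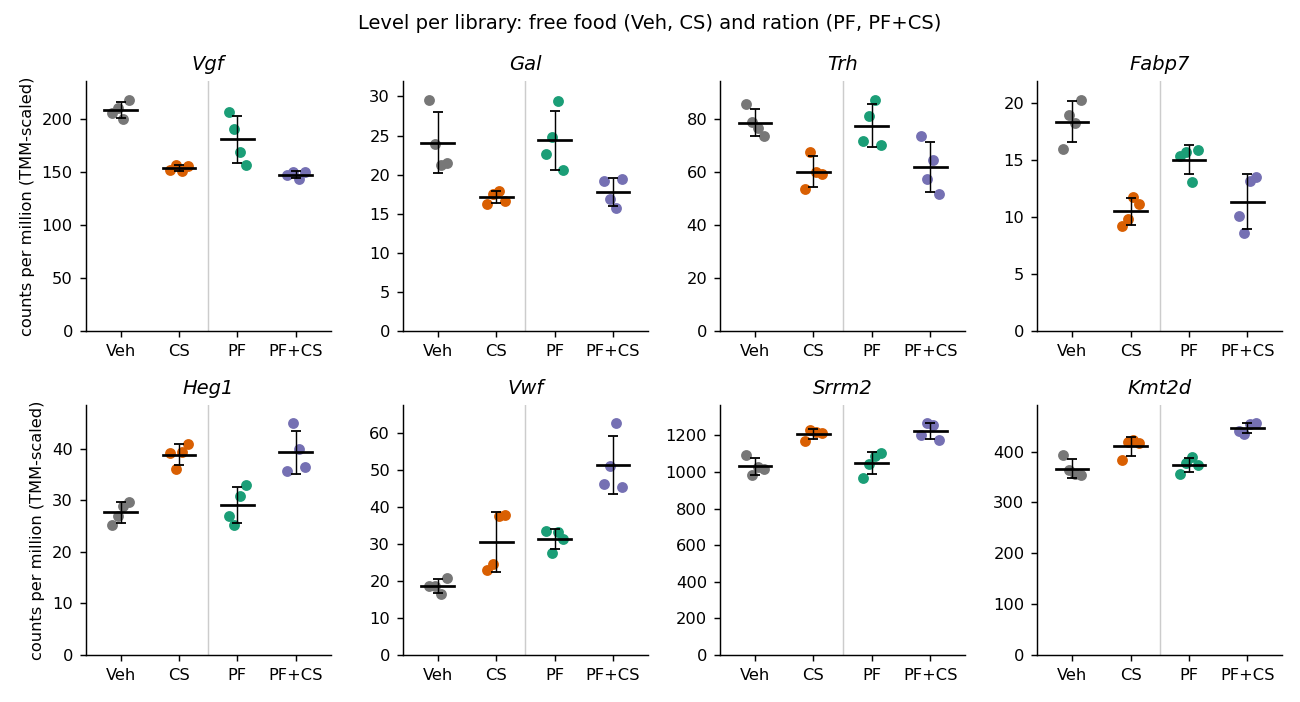
Level of 8 genes in each library, in TMM-scaled CPM from 0, with points for replicates 1 to 4 from left to right, bars for group means and whiskers for 1 SD (n = 4). In Vgf, Gal, Heg1 and Srrm2 no library with celastrol (CS, PF+CS) reaches into the range of those without (Veh, PF), and in Vwf the PF libraries also lie above Veh.

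Several genes of blood vessels rose with celastrol. The endothelial genes Heg1, Flt1, Sox17, Eng, Pecam1 and Tie1 rose, as did Vwf, the clotting factor that endothelium stores and secretes. Heg1 encodes a receptor that stabilises endothelial junctions, and it was at 25.2, 26.9, 28.9 and 29.8 CPM in Veh and 39.1, 36.1, 39.4 and 40.9 CPM in CS. With the ration it was at 27.02, 25.3, 30.9 and 32.9 CPM in PF and 35.8, 44.97, 39.99 and 36.5 CPM in PF+CS. Every library with celastrol lay above every library without. Heg1 (chr16:33684370-33771576; the provisional gene Gm15657 overlaps it on the opposite strand) rose by 0.46 on the log2 scale (SE 0.06, edgeR BH adjusted p = 1.93e-05), 1.37-fold, with arm values of 0.49 and 0.43. Its ration coefficient was 0.04.

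Flt1 is a receptor for vascular endothelial growth factor. Flt1 was at 47.9, 48.6, 51.5 and 49.8 CPM in Veh and 67.6, 58.1, 81.5 and 73.6 CPM in CS. It was at 57.1, 67.4, 60.96 and 71.6 CPM in PF and 82.6, 80.9, 88.4 and 74.2 CPM in PF+CS. Groups did not overlap within either arm, but PF 2, PF 3 and PF 4 lay above CS 2. Flt1 (chr5:147561604-147726011) rose by 0.42 (SE 0.06, edgeR BH adjusted p = 0.00134), and its ration coefficient was 0.29.

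Vwf showed the same order within each arm on top of a rise with the ration. Its level was 18.6, 18.6, 16.4 and 20.9 CPM in Veh and 22.8, 24.4, 37.5 and 37.8 CPM in CS. The PF libraries were at 33.4, 27.5, 33.3 and 31.2 CPM and the PF+CS libraries at 46.3, 51.02, 62.6 and 45.4 CPM. CS 1 and CS 2 lay below every PF library. Vwf (chr6:125546774-125686679) rose by 0.74 (SE 0.12, edgeR BH adjusted p = 0.0052), 1.67-fold, with an equal ration coefficient of 0.74. Edn1, the vasoconstrictor endothelin-1, rose by 0.69 (SE 0.19, edgeR BH adjusted p = 0.0424) from 1.54 ± 0.743 CPM without celastrol to 2.43 ± 0.809 CPM with it (SD, n = 8 and 8), with a call that held in 3 of the 16 fits that left out 1 library. The ration coefficient of Edn1 was larger, at 0.87 (edgeR BH adjusted p = 0.00254). Igfbp7, a secreted binding protein of vessels whose gene overlaps Polr2b on the opposite strand, rose by 0.57 (SE 0.10, edgeR BH adjusted p = 0.0021). Its ration coefficient, 0.96, was also larger than its celastrol coefficient. Klf4, a factor of quiescent endothelium and an early-response gene, rose by 0.68 (SE 0.16, edgeR BH adjusted p = 0.0252) from 4.01 ± 0.736 CPM without celastrol to 6.36 ± 2.00 CPM with it (SD, n = 8 and 8).

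Of 27 genes of endothelial junctions and angiogenic receptors, 6 rose and 0 fell, with a median of 0.22 and 25 of the 27 positive. Besides Heg1 and Flt1 these were Sox17 (0.56), an arterial transcription factor, Eng (0.32), a co-receptor of the TGF-beta family, Pecam1 (0.48), the junctional adhesion molecule CD31, and Tie1 (0.43), an orphan angiopoietin co-receptor. The tight-junction genes Cldn5 (0.19) and Ocln (0.28), the cadherin Cdh5 (0.35) and the receptor Kdr (0.16) were not called. The cerebral cavernous malformation genes Krit1 (0.03), Ccm2 (−0.13) and Pdcd10 (0.05), whose products bind the HEG1 tail, were not called either. Without Veh 2, CS 4 or PF+CS 3 the number that rose was 3. For the ration coefficient the same list split, with 3 higher and 7 lower.

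Markers of the vessel wall and of the meninges moved with these genes. Of 10 endothelium markers 2 rose, Flt1 and Pecam1, all 10 were positive, and their mean level was 3.66 to 4.15 log2 CPM without celastrol and 4.01 to 4.46 with it. All 11 pericyte markers were positive (median 0.13, none called), with mean levels of 2.98 to 3.76 and 3.30 to 4.16 log2 CPM. Acta2, Myh11 and Tagln, contractile genes of smooth muscle in that list, stood apart from its median, with log2 changes of 1.61, 1.41 and 1.11 (edgeR BH adjusted p = 0.103, 0.105 and 0.203). The Acta2 change was the highest of all 14775 genes. Acta2, smooth muscle actin, was at 8.18, 3.86, 2.35 and 8.43 CPM in Veh and 9.44, 4.79, 8.46 and 32.6 CPM in CS. It was at 3.38, 2.75, 6.48 and 5.53 CPM in PF and 9.67, 18.1, 29.6 and 6.68 CPM in PF+CS. CS 4, PF+CS 2 and PF+CS 3 were the highest, CS overlapped with Veh, and PF+CS lay above PF. With the meningeal marker level as a covariate, 6 of the 27 endothelial genes rose with a median of 0.19. The meningeal median of −0.01 in that fit carries no information, because the covariate is the mean of those same markers. Without the 5 libraries low in meningeal markers 4 rose with a median of 0.22. Whether there was more endothelium in the tissue was not tested.

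Of 22 collagen and matrix genes, 3 rose and 0 fell (median 0.21). Col11a1, a fibrillar collagen also made by neurons, was at 44.6, 40.7, 47.9 and 44.6 CPM in Veh and 54.1, 52.2, 61.04 and 59.5 CPM in CS. It was at 38.5, 38.7, 41.1 and 50.9 CPM in PF and 58.99, 57.6, 52.9 and 60.5 CPM in PF+CS. Only PF 4 came near the celastrol libraries, and the 8 and 8 did not overlap. Col11a1 (chr3:114030540-114220718) rose by 0.39 (SE 0.05, edgeR BH adjusted p = 0.000101). Col18a1 (0.32) and Col4a2 (0.21), basement membrane collagens, rose as well, whereas the meningeal collagens Col1a1 (0.12), Col1a2 (0.21) and Col3a1 (0.22) were not called. With the meningeal covariate 3 rose and the median was 0.09, but Col1a1, Col1a2 and Col3a1 are themselves part of that covariate. Col4a2 was also called higher for the ration (0.21, edgeR BH adjusted p = 0.00441).

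The promoters of Heg1, Flt1 and Eng are shown with GGAAG, a core bound by ETS factors of endothelium, in capitals on either strand (RefSeq, GRCm38.p6, 150 bases before the gene start).
Heg1 (chr16:33684316-33684465, plus strand): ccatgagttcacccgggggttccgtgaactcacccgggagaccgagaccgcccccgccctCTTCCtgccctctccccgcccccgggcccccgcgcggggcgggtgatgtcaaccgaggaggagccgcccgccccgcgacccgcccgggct
Flt1 (chr5:147726012-147726161, minus strand): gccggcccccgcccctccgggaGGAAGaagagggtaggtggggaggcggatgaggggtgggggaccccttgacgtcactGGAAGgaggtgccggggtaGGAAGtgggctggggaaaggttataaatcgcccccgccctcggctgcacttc
Eng (chr2:32646445-32646594, plus strand): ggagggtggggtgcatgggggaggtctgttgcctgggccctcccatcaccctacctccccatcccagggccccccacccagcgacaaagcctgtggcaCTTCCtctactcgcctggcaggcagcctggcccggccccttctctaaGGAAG
Heg1 held 1 match, 90 bases before the start, Flt1 held 3, at 128, 71 and 52 bases, and Eng held 2, at 52 and 5 bases. These distances are from the RefSeq start. For Heg1 that start lies downstream of the GENCODE start given above with its position (33684370). Much of its window, with the match, therefore lies inside the gene as GENCODE places it. Such a match is common, present in 47.7% of 32851 promoters in the same length.

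Some genes of chromatin and splicing rose by small amounts. Srrm2, a scaffold of nuclear speckles, had the smallest adjusted p of all genes, with 1091, 982, 1030.03 and 1018 CPM in Veh and 1169.7, 1232, 1219 and 1212 CPM in CS. In the ration arm it had 968, 1045, 1087 and 1102 CPM in PF and 1204, 1267, 1257 and 1175 CPM in PF+CS. The lowest celastrol library, CS 1, lay above the highest library without celastrol, PF 4. Srrm2 (chr17:23790532-23824741; Elob overlaps it on the opposite strand) rose by 0.23 (SE 0.03, edgeR BH adjusted p = 1.06e-05), 1.17-fold, with a ration coefficient of 0.02.

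Kmt2d and Kmt2a encode methyltransferases that mark active chromatin at histone H3 lysine 4. Kmt2d was at 394, 363, 356 and 354 CPM in Veh and 383, 419, 423 and 417 CPM in CS. It was at 357, 377, 389.6 and 374 CPM in PF and 441, 434, 455 and 456 CPM in PF+CS. CS 1 lay below Veh 1, the only overlap between Veh and CS, and PF and PF+CS lay apart. Kmt2d (chr15:98831669-98871204) rose by 0.21 (SE 0.03, edgeR BH adjusted p = 7.05e-05) and Kmt2a (chr9:44803355-44881296) by 0.17 (SE 0.02, edgeR BH adjusted p = 7.05e-05), the latter from 560.1 ± 24.9 CPM without celastrol to 630.4 ± 16.8 CPM with it (SD, n = 8 and 8). The ration coefficient of Kmt2a was 0.07 (edgeR BH adjusted p = 0.0464) and that of Kmt2d 0.08 (edgeR BH adjusted p = 0.0777).

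Of 32 histone lysine methyltransferases and demethylases 8 rose and 0 fell, with a median of 0.07. The others were Kmt2b (0.16), Kmt2e (0.12), Setd1a (0.16), Setd1b (0.16) and Dot1l (0.17), methyltransferases or their relatives, and Kdm6b (0.15), a demethylase of lysine 27. Without CS 4, 3 of the 32 rose. Of 34 splicing genes 6 rose and 0 fell, with a median of 0.05. They were Srrm2, its partner Srrm1 (0.12), the regulators Clasrp (0.23), Safb2 (0.21) and Srsf5 (0.14), and Snrnp70 (0.15) of the U1 particle. Nav2, a cytoskeletal gene of neurite growth which 9 other annotated genes overlap, was at 135, 126, 127 and 128 CPM in Veh and 146, 153, 146 and 142 CPM in CS. Its PF libraries were at 135, 129.6, 130.5 and 128 CPM and its PF+CS libraries at 158, 149.5, 149 and 153 CPM. The 8 and 8 did not overlap, and Nav2 rose by 0.20 (SE 0.03, edgeR BH adjusted p = 7.05e-05). In the ration coefficient 8 of the 32 chromatin genes rose and 1, Setd1a, fell (−0.11, edgeR BH adjusted p = 0.0459), and 7 of the 34 splicing genes rose.

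The genes that fell in number were those of ribosomes and of mitochondrial respiration. Of 78 cytosolic ribosomal protein genes 18 fell and 0 rose (median −0.10), and of 77 nuclear subunits of oxidative phosphorylation 10 fell and 0 rose (median −0.10). Rplp1, of the ribosomal stalk, was at 165, 173, 156 and 155 CPM in Veh and 141, 134, 137 and 128 CPM in CS. It was at 156, 143, 143 and 141 CPM in PF and 133, 129, 139 and 131 CPM in PF+CS. The 8 and 8 did not overlap, although CS 1 and PF 4 both round to 141 CPM, and Rplp1 (chr9:61913284-61914542) fell by 0.20 (SE 0.03, edgeR BH adjusted p = 0.00105). Rpl37 (−0.22) and Rps9 (−0.16) were next by adjusted p. Ribosomal protein genes have many near-identical pseudogenes, so reads may be split among copies. Leaving out 1 library moved the number of ribosomal genes that fell from 4 (without CS 4) to 21 (without PF 3), and it was 6 to 10 without Veh 1, Veh 2, Veh 3, PF 1, CS 1, CS 3 or PF+CS 2.

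Atp5e encodes the epsilon subunit of ATP synthase, and it was at 36.2, 32.1, 25.97 and 22.9 CPM in Veh and 20.1, 19.3, 19.97 and 16.9 CPM in CS. It was at 31.1, 23.1, 20.9 and 25.3 CPM in PF and 20.3, 18.7, 18.9 and 17.2 CPM in PF+CS. All 8 celastrol libraries lay below all 8 others. Atp5e (chr2:174461072-174464105) fell by 0.51 (SE 0.09, edgeR BH adjusted p = 0.0046), with log2 changes of −0.61 and −0.40 in the arms. Cox4i1 (−0.17) and Cox5a (−0.19) of cytochrome oxidase, Ndufa2 (−0.32) and Ndufb7 (−0.22) of complex I and Atp5b (−0.11) of ATP synthase fell as well. Of 77 mitochondrial ribosomal protein genes 1 fell, Mrps34 (−0.25), and of 37 proteasome subunits 1 fell, Psmb4 (−0.18), with medians of −0.08 and −0.07. Over all genes 1.34% were called lower, so these 2 counts are near the background. Respiratory genes that fell numbered 6 without Veh 2, Veh 3 or CS 4 and at most 15 (without PF 4).

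Transcript length moved with these groups. The median longest transcript of genes called higher was 5642 bases and that of genes called lower 2401.5 bases, against 3446 bases for all tested genes with a value. Over 10 bins of length the median log2 change of all genes went from −0.05 in the shortest (median 1028 bases) to 0.02 in the longest (median 8481 bases). With an offset per library for GC content and length the total was 370 calls, but the split moved from 163 higher and 198 lower to 117 higher and 253 lower. In that fit 9 ribosomal genes fell (median −0.06) and 6 respiratory genes (median −0.07), 4 chromatin genes rose and 1 fell (median 0.03), and 6 splicing genes and 6 endothelial genes rose. Rplp1, Atp5e, Srrm2, Kmt2d and Heg1 kept their calls there. In FPKM 8 ribosomal genes and 15 respiratory genes fell, 2 chromatin genes rose, 1 splicing gene rose and 1 fell, and 2 endothelial genes and 1 collagen gene rose. Without the 5 libraries low in meningeal markers 4 ribosomal, 3 respiratory and 4 chromatin genes were called, in the same directions. Rn45s, the ribosomal RNA precursor that tracks leftover ribosomal RNA, held a mean of 4.29% of counts in Veh, 2.73% in CS, 3.17% in PF and 3.21% in PF+CS. The part of RNA quality or library preparation in these changes was not tested.

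**Figure D3:**
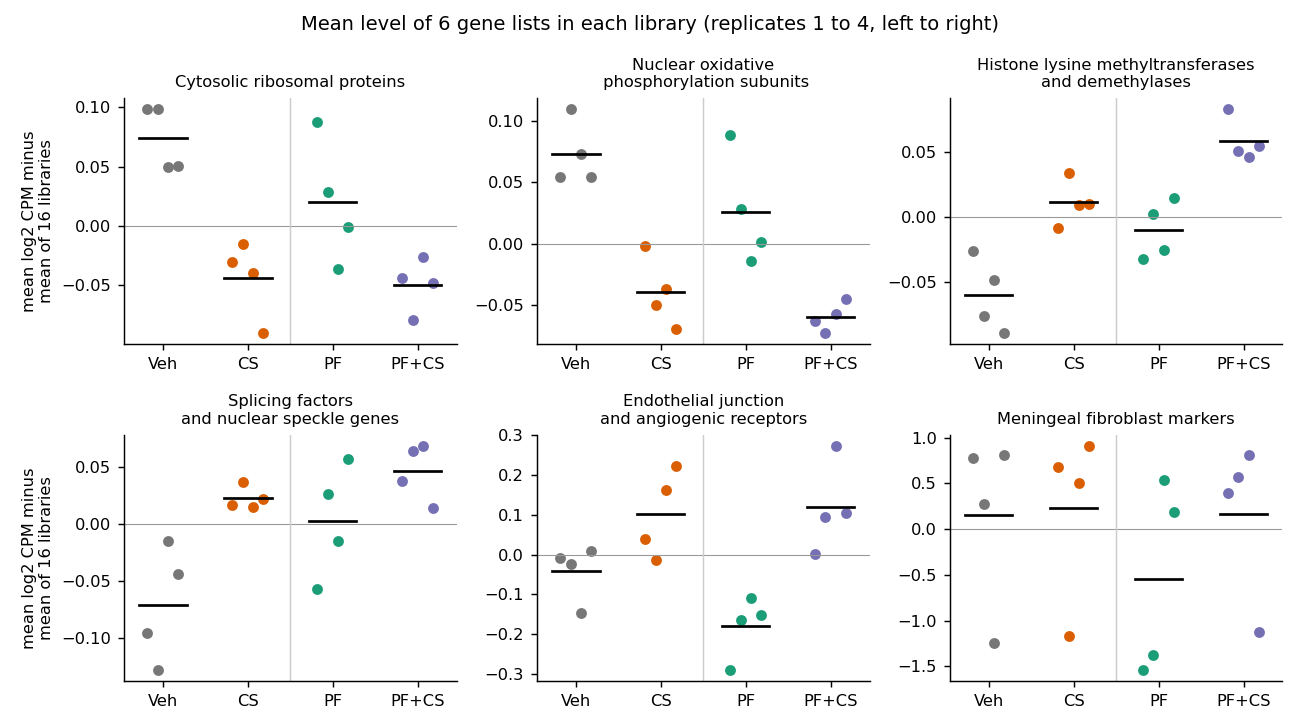
Mean log2 CPM of 6 gene lists in each library, centred on the mean of the 16 libraries, with replicates 1 to 4 from left to right and bars for group means. Ribosomal and respiratory genes lie higher and chromatin genes lower in Veh than in CS and in most PF than PF+CS libraries, and the meningeal markers of the sixth panel are low in 5 libraries.

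Glial and tanycyte genes were led by Fabp7, a fatty acid-binding protein of radial glia, astrocytes and tanycytes. Fabp7 was at 15.96, 18.9, 18.2 and 20.3 CPM in Veh and 9.20, 9.83, 11.8 and 11.2 CPM in CS. It was at 15.4, 15.7, 13.1 and 15.9 CPM in PF and 10.1, 8.56, 13.2 and 13.5 CPM in PF+CS. Veh and CS lay far apart, and PF 3 lay below PF+CS 3 and PF+CS 4. Fabp7 (chr10:57784881-57788450) fell by 0.61 (SE 0.09, edgeR BH adjusted p = 0.000312), to 0.654 of its level without celastrol. Fabp7 was the 1 of 11 tanycyte markers that fell (median −0.02), and Mlc1 (−0.13), of astrocyte endfeet, the 1 of 13 astrocyte markers (median −0.05). Olig1 (−0.17), of the oligodendrocyte lineage, was the 1 of 7 progenitor markers that fell, and none of 10 oligodendrocyte, 13 microglia, 7 ependyma or 8 neuron markers was called. Over all genes 1.34% were called lower, and single calls in such short lists are not read as results about a cell type.

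The remaining genes named by the size of their change were mostly of low level. Nox4, an oxidase that makes hydrogen peroxide, was at 2.73, 2.47, 1.73 and 1.04 CPM in Veh and 5.03, 3.12, 2.28 and 3.83 CPM in CS. It was at 0.675, 1.43, 2.65 and 1.38 CPM in PF and 2.42, 3.20, 4.04 and 1.67 CPM in PF+CS, so groups overlapped in both arms. Nox4 had the largest rise among named genes, 0.88 (SE 0.23, edgeR BH adjusted p = 0.0332), but its call held in 7 of 16 fits that left out 1 library. Vsig2, an immunoglobulin-domain membrane protein, rose by 0.75 (SE 0.16, edgeR BH adjusted p = 0.00977) from 1.78 ± 0.676 CPM without celastrol to 3.02 ± 0.806 CPM with it (SD, n = 8 and 8), without overlap within either arm. St6galnac2 (0.66), a sialyltransferase, Arhgef5 (0.66), and Paqr5 (0.66), a membrane progestin receptor, rose. Rbpms (0.57), an RNA-binding protein, and Itpr3 (0.56), an inositol trisphosphate receptor, rose too. Vsig2 (0.73), St6galnac2 (0.47) and Paqr5 (0.57) were also called higher for the ration, while Nox4, Arhgef5, Rbpms and Itpr3 were not called for it.

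Among lower genes, Tmem215, a membrane protein, was at 7.01, 8.59, 4.71 and 6.87 CPM in Veh and 4.66, 5.99, 4.28 and 4.85 CPM in CS. Its level was 5.91, 9.67, 9.72 and 5.53 CPM in PF and 4.52, 4.34, 4.57 and 4.76 CPM in PF+CS, so PF and PF+CS lay apart while Veh 3 lay within CS. Tmem215 fell by 0.60 (SE 0.14, edgeR BH adjusted p = 0.0157). Lrrc10b, a leucine-rich repeat gene, fell by 0.61 (SE 0.15, edgeR BH adjusted p = 0.0284) from 3.28 ± 0.427 CPM without celastrol to 2.10 ± 0.504 CPM with it (SD, n = 8 and 8), with no overlap of the 8 and 8. Chia1 (−0.58), an acidic chitinase, Rgs16 (−0.46), a brake on G-protein signalling with Gm28513 on its opposite strand, and Cited1 (−0.39), a transcriptional coactivator, fell. Nlrx1 (−0.39), a mitochondrial NOD-like protein, and Ccdc19 (−0.38), a coiled-coil protein, fell as well. The ration coefficient was 0.50 for Cited1, of the opposite sign, and −0.33 for Nlrx1, of the same sign, and both were called. Of the 30 genes named by size or by smallest adjusted p, 17 kept their call in each of the 16 fits that left out 1 library.

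**Figure D4:**
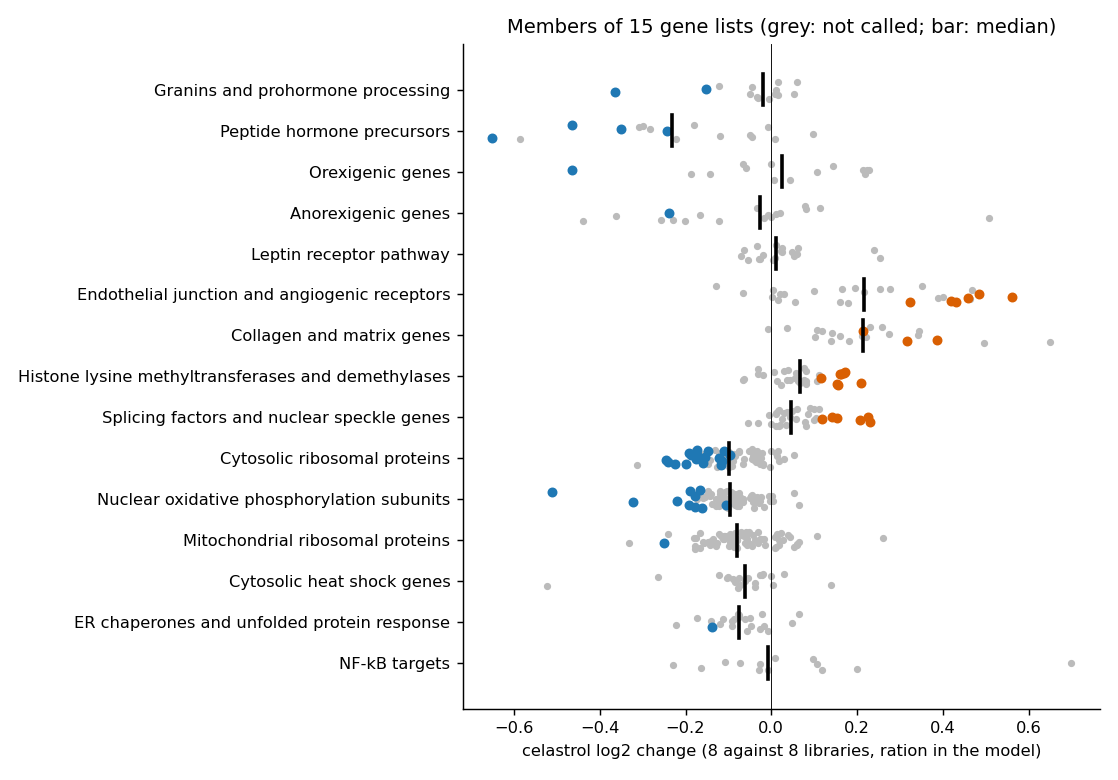
Celastrol log2 change of each tested member of 15 gene lists, with called genes in orange (higher) and blue (lower), others in grey and a bar at each list's median. Called members lie to the left in the peptide, ribosomal and respiratory lists and to the right in the endothelial, collagen, chromatin and splicing lists, and none was called in the leptin, heat shock and NF-kB lists.

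Genes through which celastrol has been linked to leptin were not called. Hdac6, the cytoplasmic deacetylase named in the study's title, was at 63.5, 59.04, 56.4 and 51.1 CPM in Veh and 58.5, 56.7, 60.4 and 56.4 CPM in CS. It was at 54.04, 52.9, 56.99 and 55.9 CPM in PF and 59.9, 59.6, 54.97 and 63.7 CPM in PF+CS, with overlap in both arms. Its log2 change was 0.06 (SE 0.04, edgeR BH adjusted p = 0.509). Lepr, the leptin receptor, was at 21.03, 17.6, 17.4 and 21.5 CPM in Veh and 23.4, 14.98, 24.1 and 22.05 CPM in CS. Its rationed libraries were at 16.4, 13.7, 21.4 and 26.7 CPM in PF and 23.7, 28.1, 29.6 and 20.4 CPM in PF+CS, again overlapping, and its log2 change was 0.25 (SE 0.14, edgeR BH adjusted p = 0.423).

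Socs3 (log2 change −0.03, SE 0.28) and Ptpn1 (0.00, SE 0.06), inhibitors of leptin receptor signalling, had edgeR BH adjusted p of 0.979 and 0.984. The direction of these values near 0 turned with the settings. For the ration both were called higher, Socs3 at 1.01 (edgeR BH adjusted p = 0.0317) and Ptpn1 at 0.19 (edgeR BH adjusted p = 0.0338). Under exchanged names of PF and CS these would be their celastrol changes. Il1r1, the interleukin-1 receptor through which celastrol's leptin-sensitizing action has been reported to run in mice, was at 6.88, 6.01, 9.73 and 6.97 CPM in Veh and 8.71, 7.19, 8.84 and 12.003 CPM in CS. It was at 23.98, 13.2, 22.2 and 24.97 CPM in PF and 22.4, 31.2, 24.03 and 18.4 CPM in PF+CS. Every library of the rationed groups lay above every library of the free-food groups, while celastrol and its absence overlapped in both arms. Its celastrol log2 change was 0.24 (SE 0.16, edgeR BH adjusted p = 0.522) and its ration coefficient 1.42 (SE 0.16, edgeR BH adjusted p = 7.45e-05). Under exchanged names of PF and CS that value would be the celastrol change of Il1r1.

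Of 19 leptin pathway genes 0 were called for celastrol (median 0.01), and 8 rose and 1 fell for the ration. Of 15 genes reported elsewhere as targets or mediators of celastrol, Prdx2, a thioredoxin-dependent peroxidase, fell by 0.19 (SE 0.04, edgeR BH adjusted p = 0.00938) and 0 rose. Among 11 histone deacetylases of classes I, II and IV only Hdac7, a class II enzyme of endothelium and lymphocytes with Slc48a1 on its opposite strand, was called. Hdac7 was at 43.9, 37.9, 35.8 and 34.96 CPM in Veh and 41.2, 44.6, 45.5 and 43.5 CPM in CS. It was at 37.1, 34.3, 32.5 and 38.2 CPM in PF and 45.8, 41.3, 41.1 and 43.4 CPM in PF+CS, so Veh 1 lay within CS while PF and PF+CS lay apart. Hdac7 rose by 0.24 (SE 0.05, edgeR BH adjusted p = 0.00652). Without the 5 libraries low in meningeal markers the edgeR BH adjusted p was 0.0535 for Prdx2 and 0.0923 for Hdac7.

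Of the arcuate feeding peptides none was called in the celastrol coefficient, although Pomc was called lower with free food. Pomc, precursor of the appetite-lowering melanocortins, was at 40.6, 27.3, 27.4 and 30.2 CPM in Veh and 21.6, 19.3, 15.97 and 18.4 CPM in CS. It was at 23.6, 16.7, 16.9 and 17.5 CPM in PF and 16.3, 16.8, 16.7 and 20.2 CPM in PF+CS. Veh stood above the other 3 groups, which overlapped. The celastrol log2 change of Pomc was −0.44 (SE 0.13, edgeR BH adjusted p = 0.103). It was −0.73 with free food (edgeR BH adjusted p = 0.0106) and −0.08 under the ration (interaction unadjusted p = 0.00304, BH adjusted p = 0.913 by edgeR). The ration coefficient of Pomc was also −0.44 (edgeR BH adjusted p = 0.0452), a called decrease. Pomc passed in DESeq2 (adjusted p = 0.0107) and as the mean of both arms in the model with the interaction (edgeR adjusted p = 0.028). Cartpt (−0.23), its anorexigenic partner, passed in DESeq2 (adjusted p = 0.026) and had an edgeR BH adjusted p of 0.108.

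Agrp (0.11, edgeR BH adjusted p = 0.784) and Npy (0.22, 0.139), which drive feeding from the same nucleus, did not pass for celastrol. In the ration coefficient Agrp was called higher, at 0.55 (edgeR BH adjusted p = 0.0102), and Npy was not called (0.12). The Agrp locus overlaps Ctcf and Gm5914 in the annotation, so reads may be shared. Npy was at 15.1, 12.9, 14.8 and 14.04 CPM in Veh and 17.2, 20.6, 17.3 and 14.1 CPM in CS, where CS 4 lay within Veh. It was at 15.7, 16.5, 14.4 and 17.4 CPM in PF and 18.9, 15.5, 21.3 and 15.7 CPM in PF+CS, with overlap. Of 14 orexigenic genes Gal fell and 0 rose (median 0.03), and of 18 anorexigenic genes Calcr, the calcitonin receptor (−0.24, edgeR BH adjusted p = 0.014), fell and 0 rose (median −0.03).

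**Figure D5:**
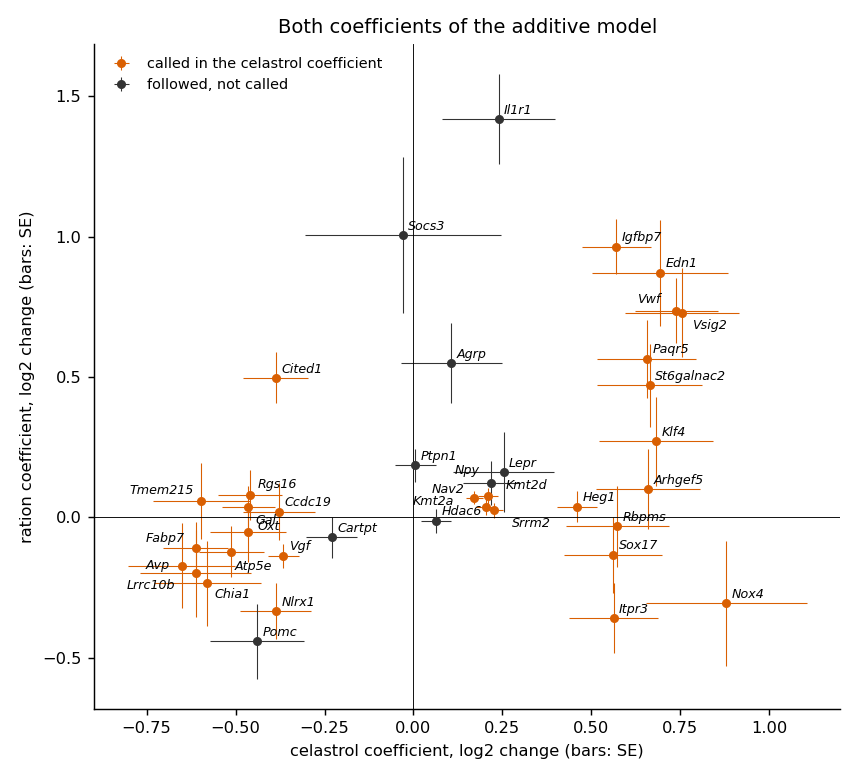
Celastrol coefficient (horizontal axis) against ration coefficient (vertical axis) of the same fit, in log2 units with bars of 1 SE, for the 30 genes named by size or adjusted p (orange) and the 9 genes followed throughout (black). Il1r1 and Socs3 lie high on the ration axis, and their celastrol values, 0.24 (SE 0.16) and −0.03 (SE 0.28), were not called. Heg1, Srrm2 and Gal lie near 0 on the ration axis.

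Lists of stress and endocrine response had no or few celastrol calls, while many members were called for the ration in the same fit. The difference between the coefficients was not tested. With the names PF and CS exchanged, the ration calls given here would be the celastrol calls. Over all genes 1.1% were called higher and 1.34% lower for celastrol, and 6.9% higher and 4.4% lower for the ration. Of 21 cytosolic heat shock genes 0 were called for celastrol (median −0.06) and 17 rose for the ration. Of 22 endoplasmic reticulum chaperone and unfolded protein response genes, Hyou1 (−0.14), an ER chaperone, fell for celastrol (median −0.08) and 12 rose for the ration. Glucocorticoid-induced genes had 0 of 21 calls for celastrol (median 0.11) and 17 higher with 1 lower for the ration. Acute-phase genes had 0 of 17 (median 0.09) against 12 higher. NF-kB targets had 0 of 13 (median −0.01) against 6 higher, and clock genes 0 of 19 (median 0.01) against 4 higher and 9 lower. NRF2 antioxidant targets had 0 of 18 for celastrol (median −0.03). Celastrol changes were positive in 3 of 21 heat shock, 2 of 22 ER, 5 of 18 NRF2 and 6 of 13 NF-kB genes. They were positive in 11 of 17 acute-phase, 12 of 19 clock and 16 of 21 glucocorticoid-induced genes, against 7205 of 14775 overall.

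Other lists held 1 or 2 called genes each. Over all genes 2.44% were called for celastrol (1.1% higher and 1.34% lower), so these counts are not read as results about the lists. Fdps (−0.22), farnesyl diphosphate synthase, was the 1 of 21 cholesterol synthesis genes that fell, and 8 fell for the ration. Igf1r (0.20, edgeR BH adjusted p = 0.00105), the growth factor receptor, was the 1 of 15 insulin and FoxO genes that rose. Stat2 (0.29) was the 1 of 24 interferon-induced genes that rose, and Klf4 the 1 of 19 immediate early genes. Among 18 fatty acid-binding and lipid transport genes Fabp7 and Apoe (−0.09), the main brain apolipoprotein, fell. Grid1 (−0.13) was the 1 of 39 glutamate and GABA receptor subunits that fell. Of 78 potassium channel genes Kcnc2 (0.16), of fast-spiking neurons, rose and Kcnj16 (−0.20), of glia, fell. Of 5 choroid plexus genes that passed the filter Clic6 (−0.21) fell. Fasting fuel switch genes (0 of 15), pericyte markers (0 of 11) and striatum markers (0 of 7) had no call.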

How the data were processed

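Messenger RNA libraries (SMARTER mRNA-seq kit, per the labels' protocols) were made from total RNA of 16 hypothalamus samples. The authors deposited a table of raw counts per gene and, for the same libraries, a table that its name calls counts but whose fractional values have similar totals in every library, read here as FPKM. The authors' deposited comparison tables hold a mean of normalised counts (baseMean), the log2 fold change and its error, a test score, and p-values before and after adjustment. Only their baseMean was used, to trace the columns behind each table (largest relative error 6.7e-14). The genome build was GRCm38, per the submitters' processing notes. Aligner, counter, annotation and strand setting were not given in the sources used here, so overlapping genes on opposite strands cannot be separated. Gene positions and lengths came from GENCODE M21.

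Counts were fitted in edgeR 4.0.16 (R 4.3.3) by robust quasi-likelihood with TMM scaling, after filterByExpr by group at a minimum count of 10. The model was celastrol + ration. The interaction came from celastrol * ration, and the arms from a model of 4 groups, all on the 16 libraries. Genes were called at a BH adjusted p of at most 0.05 over 14775 genes. SE is the log2 change divided by the square root of F. The common biological coefficient of variation was 0.0548. CPM values are TMM-scaled, and list levels are means of log2 CPM with a prior count of 2. The scripts were tested on simulated counts.

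Named genes were the 12 higher and 12 lower called genes of largest log2 change, at a mean log2 CPM of 1 or more, the same sign in both arms and no provisional name. The 6 of smallest adjusted p, 9 followed genes and up to 4 called members of each of 47 lists were added. The members and lists were chosen with earlier results of these data known. The list of mitochondrially encoded genes had 0 members in the count table, and blood and pituitary lists 1 tested member each, not called. The 27 genes whose names a spreadsheet had turned into dates (0.22 to 0.24% of counts, 23 tested) are not named, and 1 called list member is not reported here. There were 0 columns of other samples. No samples looked like repeats of a library (chi-square per gene between replicates 1.63 to 6.60). Alternatives were RLE size factors, no filter, no robust shrinkage, a replicate block, a meningeal covariate, an offset for GC content and length, omission of libraries, limma voom 3.58.1, DESeq2 1.42.0, log2(FPKM + 0.1) in limma, the mean of both arms, and exchanged names.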

Additional observations from a re-analysis of the deposited data

Results flagged for a closer look

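In groups of 4, a library was singled out when its gap to the nearest other value, divided by the group's range, exceeded Dixon's critical value at 95%. Chance singles out about 1 in 20 groups, and 9 of 156 groups of the 39 named genes were so marked. Pomc was marked in 2 groups, at 23.6 CPM in PF 1 against 16.7 to 17.5 in the other PF libraries and at 20.2 CPM in PF+CS 4 against 16.3 to 16.8. Cartpt, which is made in many of the same neurons, was high in PF 1 as well, at 68.6 CPM against 53.3 to 54.4. Kmt2d was low in CS 1, at 383 CPM against 417 to 423, and lay below Veh 1. Arhgef5 was high in CS 4 (7.32 CPM against 5.13 to 5.39) and in Veh 1 (6.10 CPM against 3.44 to 3.75). Lrrc10b was low in CS 1 (1.72 CPM against 2.38 to 2.52), Cited1 high in Veh 2 (14.3 CPM against 11.8 to 12.2) and Ccdc19 high in PF+CS 2 (7.88 CPM against 6.41 to 6.64).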

How the results depend on the processing

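The total of 361 genes called for celastrol stayed within 1.5 times of itself with RLE size factors (349), without a filter (360), without robust shrinkage (327), with the meningeal covariate (309), with the length and GC offset (370), in voom (363), in DESeq2 (491), in FPKM (244, 23 higher and 221 lower, with the median of all genes at −0.046) and as the mean of both arms (383). A similar total did not mean the same genes. Of the 361, 142 were also called in FPKM, 267 with the meningeal covariate, 270 with the offset and 303 without robust shrinkage. DESeq2 shared 316 of them, the fit without a filter 336, RLE size factors 339 and voom 346. The total was 157 when the 5 libraries low in meningeal markers were dropped, and 1670 with the names CS and PF exchanged. The calls with free food (132) were 212 with the meningeal covariate, 78 with the offset, 342 without the 5 libraries, 305 in DESeq2, 20 in FPKM and 257 with that arm alone. Those under the ration (14) were 7 with the offset, 0 without the 5 libraries, 32 in DESeq2, 0 in FPKM and 7 with that arm alone. Leaving out each library gave 122 to 492 calls for celastrol, 10 to 242 with free food, 1 to 24 under the ration and 0 to 0 for the interaction. The cause of these moves was not tested.

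With a replicate block 327 genes were called (140 higher and 187 lower). The replicate numbers did not pair the samples, since same-numbered libraries deviated with correlations of −0.632 to 0.345 (median −0.052 over 5000 genes) and 2 of 16 correlated best with their own number.

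Of 68 called named genes, 37 kept their call in every fit that left out 1 library, none changed direction there, and 33 passed in FPKM. Calls that ended in FPKM were those of Nox4, Vsig2, Klf4, Arhgef5, Paqr5, Rbpms, Itpr3, Sox17, Tmem215, Chia1, Nlrx1, Nav2, Mlc1, Olig1, Pecam1, Lef1, Pcsk1, Hdac7, Hyou1, Igf1r, Rps9, Mrps34, Psmb4, Safb2, Clasrp, Snrnp70, Setd1a, Dot1l, Stat2, Col4a2, Col18a1, Eng, Apoe, Grid1 and Kcnc2. With names exchanged the direction turned for Nox4 (−0.306), Rbpms (−0.0312), Itpr3 (−0.359), Sox17 (−0.133), Tmem215 (0.0572), Gal (0.0362), Rgs16 (0.0795), Cited1 (0.497), Ccdc19 (0.0201), Hdac6 (−0.0121), Socs3 (1.01), Clic6 (0.0101), Trh (0.0112), Calcr (0.0634), Prdx2 (0.00259), Pdyn (0.0665), Hdac7 (−0.057), Hyou1 (0.066), Clasrp (−0.00285), Setd1a (−0.112), Stat2 (−0.00586), Col11a1 (−0.0221) and Grid1 (0.00944), in log2 units. Values near 0 turned in other settings too. Hdac6 was −0.00796 in FPKM. Socs3 was 0.0272 without the 5 libraries, 0.00488 in voom and −0.153 to 0.108 when 1 library was left out. Ptpn1 was −0.0132 with the meningeal covariate, −0.0165 with the offset, −0.0655 in FPKM and −0.028 to 0.0349 when 1 library was left out. Nox4 and Edn1 had CPM values near 1 in some libraries, where few reads limit the precision.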

Other observations

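Some called genes outside the named set were noticed after their values were seen. Prok2, a peptide that carries the output of the suprachiasmatic clock, had the largest decrease among them, with 0.613 to 1.32 CPM in CS and 0.841 to 1.26 CPM in PF+CS, against 1.25 to 2.08 CPM in Veh and 1.47 to 2.80 CPM in PF. Its log2 change was −0.99 (SE 0.21, edgeR BH adjusted p = 0.00911), and its level was below the minimum set for named genes. Th, the rate-limiting enzyme of dopamine synthesis, fell by 0.31 (SE 0.07, edgeR BH adjusted p = 0.0168). Meg3, a long non-coding RNA of neurons, rose by 0.21 (edgeR BH adjusted p = 0.000326), and Itm2c, a membrane protein of neurons, fell by 0.19 (edgeR BH adjusted p = 0.000156). Neither Meg3 nor Itm2c overlapped between the 8 libraries with celastrol and the 8 without. The endothelial regulators Gata2 (0.56) and Acvrl1 (0.40) rose as well, with edgeR BH adjusted p of 0.0421 and 0.041.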
